A study of Sus scrofa with 36 samples.

Results

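The genes described here belong to the integrated stress and amino acid response, and 10 were listed by name: ATF4, DDIT3, ASNS, TRIB3, CHAC1, SESN2, DDIT4, PSAT1, PHGDH and SLC7A11. Of these, 9 had a row among the 31907 pig gene identifiers of the count tables. ATF4 is not analysed here, because the identifier that pairs with its symbol (ENSSSCG00000059058) had no row. The rule for the members uses gene names and no measured value, although the list was drawn up with earlier results of these data known.

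Cells slow general protein synthesis when an amino acid runs short, when misfolded protein gathers in the endoplasmic reticulum or when haem or mitochondria fail. Sensor kinases then phosphorylate the initiation factor eIF2alpha, and the transcription factor ATF4 is made from its mRNA in spite of the general slowing. ATF4 and its partners switch on enzymes that make amino acids (ASNS, PHGDH, PSAT1), a cystine importer (SLC7A11), brakes on growth signalling (SESN2, DDIT4) and genes linked to cell death or feedback (DDIT3, TRIB3, CHAC1). In the brain, serine is made mainly in glial cells and passed on to neurons.

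The RNA came from the cerebellum of 36 term-born crossbred piglets of both sexes from 6 litters, in a 2 × 2 design of diet and birth weight with 9 piglets in each of 4 groups. Piglets of normal birth weight (NBW) and piglets with intrauterine growth restriction (IUGR), picked on the farm by low birth weight and head shape, entered at 3 days of age, received formula whose fat was vegetable oil (VEG) or cream from cows (MILK), and were killed on study day 21 or 22. All groups were fed formula and housed singly, and there was no sow-reared group. Both formulas held the same whey protein and casein products in the same amounts, so the diets differed in the source of fat rather than of protein, although the total protein and energy listed for MILK were slightly higher. Littermates are related, litter is not in the labels, and every test here treats the piglets as independent.

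Of the 36 libraries, 33 were used: 8 of VEG-NBW, 8 of VEG-IUGR, 8 of MILK-NBW and 9 of MILK-IUGR. Their total counts on genes ranged from 15516541 to 23027502 (median 18025540), and 26.7% to 30.5% of the reads were not assigned to a gene. The study dropped 3 libraries for a low RNA integrity number, 1 from each group other than MILK-IUGR, and its text does not say which piglets. The 3 left out here each stood apart in the share of unassigned reads, which was 43.6% for piglet 202 of VEG-NBW, 64.3% for piglet 210 of VEG-IUGR and 31.5% for piglet 213 of MILK-NBW. In piglet 210, DDIT3, TRIB3, CHAC1, DDIT4 and PSAT1 had 0 counts and SLC7A11 had 1, whereas ASNS had 596. The markers of cerebellar cells were present: granule neurons, Purkinje cells and glia each had detected markers in every library used. CPM is a gene's count relative to the scaled total of its library. Of the choroid plexus markers tested, CLIC6 and AQP1 were under 1 CPM in 26 and 29 of the 33 libraries. The others, TTR, KCNJ13 and OTX2, were under 1 CPM in 0 libraries.

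None of the 9 measured members passed the test for diet, birth weight or the interaction of diet and birth weight. The smallest adjusted p over all 8 comparisons was 0.738 (edgeR quasi-likelihood test, Benjamini-Hochberg over 15356 genes tested), and all 9 members passed the filter on low counts. DESeq2 and limma voom also called 0 members. The background was the same: at an adjusted p under 0.05, 0% of all genes tested were called for diet, for birth weight, for the interaction and for each of the 4 contrasts between groups, and 0.163% for sex. In none of 54 comparisons of a member between a pair of groups were the ranges of the groups separate. The same count over all genes tested was not made, so this one does not set the members apart. The following paragraphs give the level of each member in CPM, scaled by TMM factors, by its role. CPM is not corrected for gene length, so levels are not compared between genes. A lower level in whole tissue can mean fewer cells of a type or less RNA per cell, and these cannot be told apart here.

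**Figure D1:**
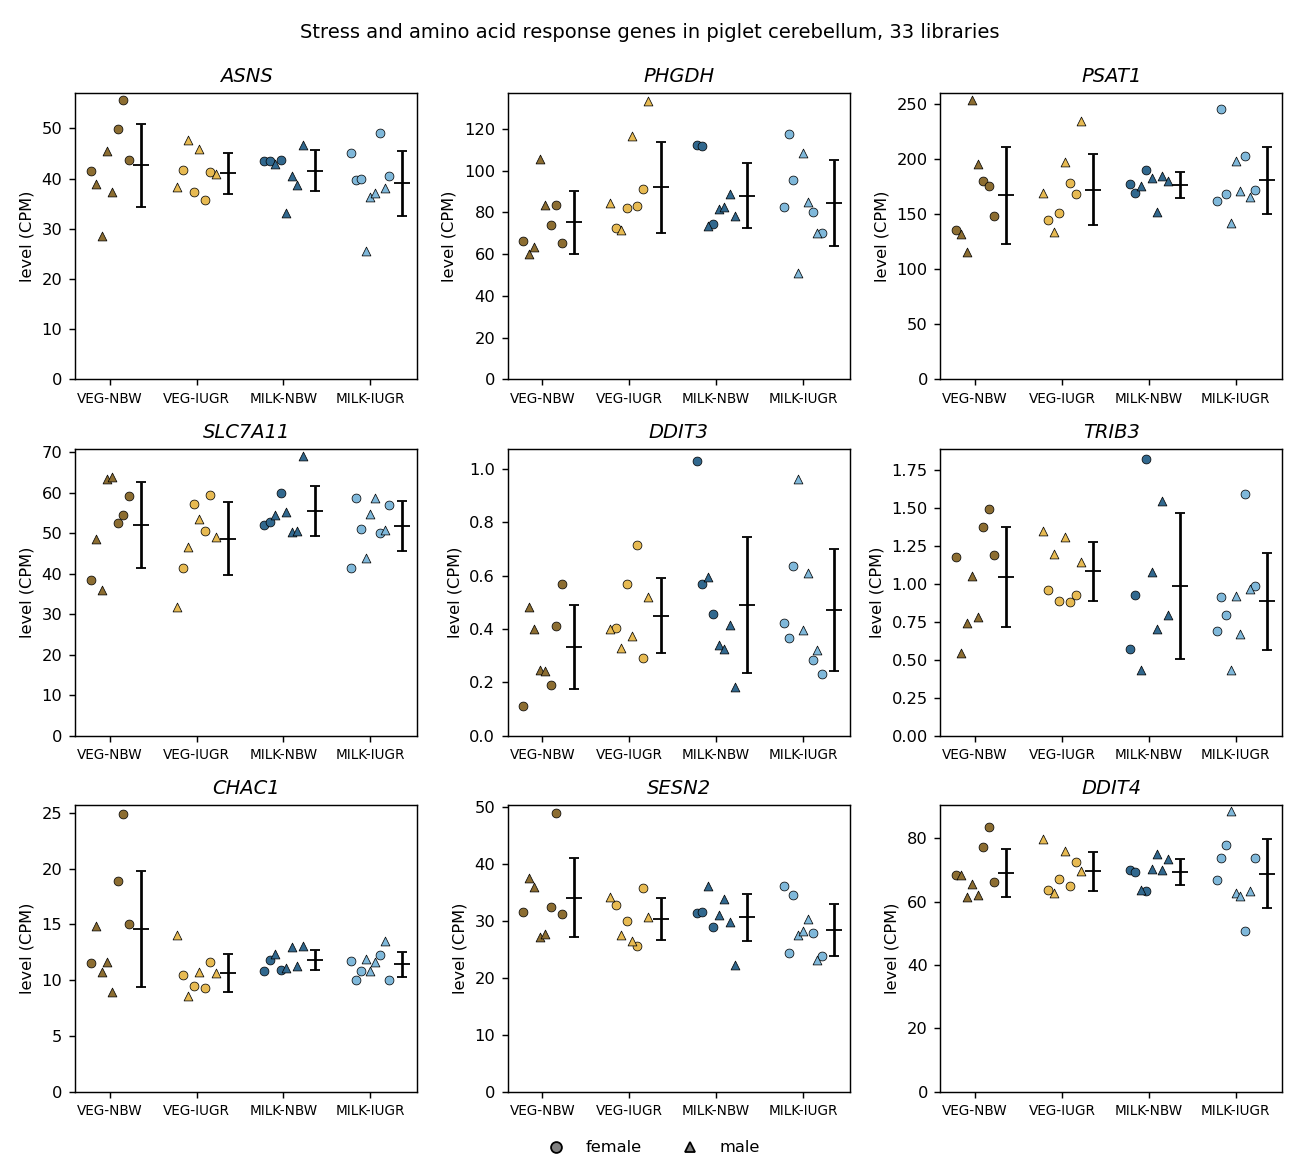
Level of each of the 9 measured genes (y axis, TMM-scaled CPM, from 0) in the 33 piglets by group (x axis), with circles for females, triangles for males and bars for the mean ± SD. The groups overlap in all 9 panels, and the highest CHAC1 values are those of 3 VEG-NBW females.

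ASNS makes asparagine from aspartate and glutamine, and its mRNA is one of the best known targets of ATF4. The gene (ENSSSCG00000015340) lies on chromosome 9, 77318341 to 77336290 (Sscrofa11.1). Its level was 28.5, 42.6 and 55.6 CPM (lowest, median, highest) in VEG-NBW, 35.7, 41.1 and 47.6 in VEG-IUGR, 33.2, 43.1 and 46.7 in MILK-NBW and 25.5, 39.7 and 49.0 in MILK-IUGR. The 4 medians lay within the range of each group. The log2 difference of MILK from VEG was -0.05 ± 0.07 (SE) with a 95% confidence interval of -0.19 to 0.08, and that of IUGR from NBW was -0.08 ± 0.07 with an interval of -0.22 to 0.05. Sex gave the largest difference for this gene: females had 43.2 ± 4.95 CPM (SD, n = 16) and males 38.9 ± 6.04 (SD, n = 17). This is a log2 difference of -0.16 ± 0.07 in males (edgeR unadjusted p = 0.025, adjusted p = 0.9997), and it was not called. Without piglet 225, the male with the lowest level, the unadjusted p was 0.056. This was the largest among 33 fits that each left out 1 library, the smallest was 0.011, and 31 were under 0.05. In VEG-IUGR the males were the higher, with a mean of 43.2 CPM (n = 4) against 39.0 in females (n = 4). For sex, 2.94% of all genes had an unadjusted p under 0.05, against 1 of the 9 members.

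PHGDH and PSAT1 catalyse the first and second steps of serine synthesis from a glycolytic intermediate. PHGDH (ENSSSCG00000006717) lies on chromosome 4, 101445977 to 101478144. Its level was 60.3, 70.2 and 105.7 CPM (lowest, median, highest) in VEG-NBW, 71.7, 84.0 and 133 in VEG-IUGR, 73.5, 82.1 and 112 in MILK-NBW and 51.0, 82.7 and 117 in MILK-IUGR. The median of VEG-NBW was the lowest of the 4, and its range overlapped that of every other group. In VEG-IUGR against VEG-NBW the log2 difference was 0.29 ± 0.15 (interval -0.0048 to 0.59, edgeR unadjusted p = 0.054, adjusted p = 0.9996), and the interaction was -0.35 ± 0.20 (unadjusted p = 0.094). The first of these values rested in part on piglet 227 of VEG-IUGR, which had the highest PHGDH level: without it the log2 difference was 0.19 (unadjusted p = 0.18), and without piglet 216 of VEG-NBW it was 0.38 (unadjusted p = 0.011).

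PSAT1 (ENSSSCG00000005287) lies on chromosome 1, 231142673 to 231172364. Its level was 115.5, 161.6 and 252.9 CPM in VEG-NBW, 133.4, 168.8 and 234.3 in VEG-IUGR, 151.6, 178.5 and 189.8 in MILK-NBW and 142.1, 170.4 and 244.9 in MILK-IUGR. The medians were close, and the SD was 44.2 CPM in VEG-NBW (n = 8) and 11.8 in MILK-NBW (n = 8). This difference in spread was not tested. The log2 difference was 0.08 ± 0.08 for diet (interval -0.10 to 0.25) and 0.04 ± 0.09 for birth weight (interval -0.13 to 0.21).

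SLC7A11 is the light chain of the cystine and glutamate exchanger, which supplies cysteine for glutathione. The gene (ENSSSCG00000022649) lies on chromosome 8, 88608083 to 88690589. Its level was 35.98, 53.6 and 63.9 CPM in VEG-NBW, 31.8, 49.8 and 59.5 in VEG-IUGR, 50.3, 53.7 and 69.0 in MILK-NBW and 41.5, 51.1 and 58.7 in MILK-IUGR. The log2 difference was 0.09 ± 0.08 for diet (interval -0.07 to 0.25) and -0.10 ± 0.08 for birth weight (interval -0.26 to 0.06). Both intervals held 0.

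DDIT3, also known as CHOP, is a transcription factor that drives cell death when stress persists, and TRIB3 is a pseudokinase that damps ATF4 activity. Both were close to the limit of counting. DDIT3 (ENSSSCG00000050998, chromosome 5, 22785441 to 22789867, a span that overlaps the gene MARS in RefSeq) had 2 to 20 counts per library with a median of 8. TRIB3 (ENSSSCG00000039862, chromosome 17, 34808273 to 34819592) had 8 to 32 counts with a median of 17. The strand setting of the counting is not given in the sources used here, so reads of DDIT3 and of the gene it overlaps may not have been kept apart. At the mean count, counting error alone would give a coefficient of variation of 35.4% for DDIT3, against 46.5% observed over the 33 piglets. For TRIB3 it would give 23.4%, against 33.9% observed.

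The DDIT3 level was 0.112, 0.323 and 0.570 CPM (lowest, median, highest) in VEG-NBW, 0.290, 0.401 and 0.714 in VEG-IUGR, 0.184, 0.435 and 1.03 in MILK-NBW and 0.232, 0.395 and 0.962 in MILK-IUGR. The diet difference was 0.30 ± 0.23 on the log2 scale, with an interval of -0.16 to 0.77. The TRIB3 level was 0.543, 1.11 and 1.49 CPM in VEG-NBW, 0.879, 1.05 and 1.35 in VEG-IUGR, 0.432, 0.863 and 1.82 in MILK-NBW and 0.433, 0.914 and 1.59 in MILK-IUGR. Its diet difference was -0.20 ± 0.17, with an interval of -0.55 to 0.15. Both intervals held 0.

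CHAC1 breaks down glutathione, and it is a late target of the ATF4 and DDIT3 branch. The gene (ENSSSCG00000038521) lies on chromosome 1, 130360510 to 130363332. Its level was 8.95, 13.2 and 24.9 CPM (lowest, median, highest) in VEG-NBW, 8.60, 10.6 and 14.0 in VEG-IUGR, 10.9, 11.5 and 13.0 in MILK-NBW and 10.04, 11.6 and 13.5 in MILK-IUGR. Of the 8 VEG-NBW piglets, 4 were above every MILK-NBW piglet, and the lowest was below every piglet of both MILK groups. Its 3 highest piglets were the females 228 (484 counts, 24.9 CPM), 222 (397 counts, 18.9 CPM) and 229 (290 counts, 15.0 CPM). The 4 females of VEG-NBW had 17.6 ± 5.71 CPM (SD) and its 4 males 11.5 ± 2.47. A difference between the sexes within this group was not tested.

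In the fitted model, the log2 difference of CHAC1 in VEG-IUGR against VEG-NBW was -0.45 ± 0.14 (interval -0.73 to -0.17, edgeR unadjusted p = 0.0024). The adjusted p was 0.9996, so this difference was not called. For this contrast 2.29% of all genes had an unadjusted p under 0.05, and CHAC1 was the only 1 of the 9 members among them. Over both diets the difference of IUGR from NBW was -0.25 ± 0.10 (unadjusted p = 0.017, background 2.19%). In MILK-NBW against VEG-NBW it was -0.29 ± 0.14 (unadjusted p = 0.041, background 6.67%), and the interaction was 0.39 ± 0.19 (unadjusted p = 0.0497, background 6.09%). These 4 values share the VEG-NBW piglets. In the contrasts without VEG-NBW, the log2 difference was -0.06 ± 0.13 for MILK-IUGR against MILK-NBW (background 6.24%) and 0.10 ± 0.13 for MILK-IUGR against VEG-IUGR (background 3.9%), and CHAC1 did not pass an unadjusted p under 0.05 in either.

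Among the 33 fits that each left out 1 library, the values were closest to 0 without piglet 228. Without it the difference in VEG-IUGR against VEG-NBW was -0.30 (unadjusted p = 0.014), the difference in MILK-NBW against VEG-NBW was -0.15 (unadjusted p = 0.19) and the interaction was 0.26 (unadjusted p = 0.12). With all 36 libraries, where piglet 202 of VEG-NBW had 39 CHAC1 counts and piglet 210 of VEG-IUGR had 0, the log2 difference in VEG-IUGR against VEG-NBW was -0.50 ± 0.34 (unadjusted p = 0.15).

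SESN2 and DDIT4 restrain the growth kinase mTORC1, SESN2 as a sensor of leucine and DDIT4 in response to hypoxia and glucocorticoids as well as ATF4. SESN2 (ENSSSCG00000029438) lies on chromosome 6, 85321982 to 85348044. Its level was 27.2, 32.0 and 49.0 CPM (lowest, median, highest) in VEG-NBW, 25.5, 30.3 and 35.7 in VEG-IUGR, 22.2, 31.1 and 36.2 in MILK-NBW and 23.1, 27.9 and 36.1 in MILK-IUGR. The highest value was again that of piglet 228, which was also the highest for ASNS. The log2 difference for birth weight was -0.14 ± 0.07 (interval -0.30 to 0.01, unadjusted p = 0.059), and without piglet 228 it was -0.10 (unadjusted p = 0.16). Without piglet 234 the unadjusted p was 0.024, and 11 of the 33 fits that each left out 1 library had one under 0.05. The diet difference was -0.12 ± 0.07 (interval -0.27 to 0.03).

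DDIT4 (ENSSSCG00000031888) lies on chromosome 14, 75117708 to 75119907, and was the steadiest of the members. Its level was 61.4, 67.4 and 83.5 CPM in VEG-NBW, 62.8, 68.4 and 79.7 in VEG-IUGR, 63.4, 69.9 and 75.2 in MILK-NBW and 50.9, 67.0 and 88.6 in MILK-IUGR. The log2 difference was 0.00 ± 0.06 for diet (interval -0.12 to 0.11) and 0.00 ± 0.06 for birth weight (interval -0.11 to 0.11). Over the 33 piglets its coefficient of variation was 10.7%, and 29.0% of all genes tested had a lower one.

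As a list, the 9 members are described by their median log2 difference. For diet it was 0.00, as for all genes tested, and 0 of the 9 had an unadjusted p under 0.05 (background 4.26%). For birth weight the median was -0.06, beside 0.00 for all genes, with 3 members higher and 6 lower. The median absolute difference for birth weight was 0.10, beside 0.04 for all genes, and for diet it was 0.09, beside 0.05. It was below that of all genes for the interaction (0.09, beside 0.12) and in MILK-IUGR against MILK-NBW (0.06, beside 0.08). In the other comparisons it was above that of all genes. For the interaction the median was -0.02, beside 0.00. In MILK-IUGR against MILK-NBW it was -0.06, beside 0.00, with 1 member higher and 8 lower, and for sex it was -0.07, beside 0.01, also with 1 higher and 8 lower in males.

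**Figure D2:**
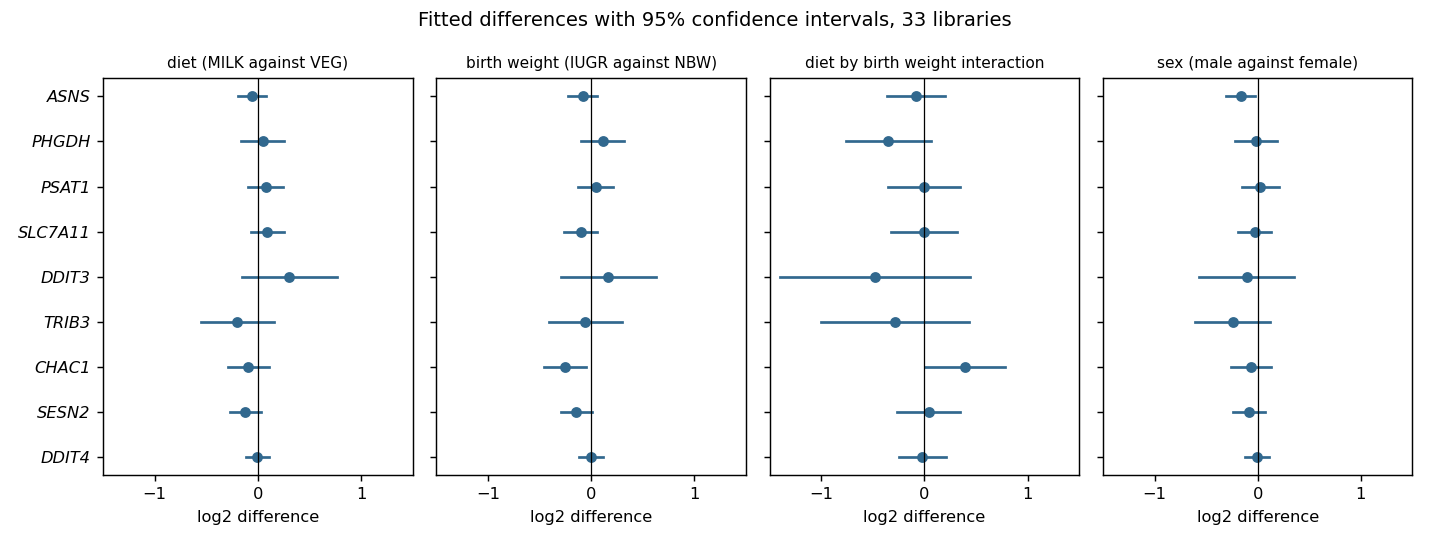
Fitted log2 differences (x axis, 0 marked by a line) of the 9 measured genes (y axis) for diet, birth weight, their interaction and sex, with bars for 95% confidence intervals over 33 libraries. The intervals of DDIT3 and TRIB3 are the widest, those of DDIT4 the narrowest, and CHAC1 sits below 0 for birth weight.

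The wider pathway was examined through 8 gene lists with 145 entries, of which 129 were tested. No gene of these lists was called in any of the 8 comparisons. At an unadjusted p under 0.05, the lists held 7 genes for diet (5.43% of those tested, beside 4.26% of all genes), 1 for birth weight (0.775%, beside 2.19%) and 13 for the interaction (10.1%, beside 6.09%). The genes that follow are from the 3 with the smallest unadjusted p in each list, with the adjusted p between 0.784 and 0.9996 for each.

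Among the 20 tested kinases, phosphatases and initiation factors that act on eIF2alpha, OMA1, the mitochondrial protease that relays mitochondrial stress, had an interaction of 0.51 ± 0.13 on the log2 scale (unadjusted p = 0.00043). IMPACT, which inhibits the amino acid sensor GCN2, had a diet difference of -0.14 ± 0.05 (unadjusted p = 0.0047). Among the 15 tested partners of ATF4, NFE2L2, the master regulator of antioxidant genes, had an interaction of 0.22 ± 0.09 (unadjusted p = 0.019). None of these 3 passed the adjusted threshold.

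Of the 15 tested enzymes of amino acid and one-carbon synthesis, PYCR1, which completes proline synthesis, had a diet difference of -0.17 ± 0.06 (unadjusted p = 0.0062). MTHFD2, the mitochondrial folate enzyme downstream of serine, had an interaction of 0.51 ± 0.21 (unadjusted p = 0.021). Of the 12 tested amino acid transporters, SLC38A1, a carrier of glutamine, had a diet difference of 0.15 ± 0.07 (unadjusted p = 0.038). Of the 19 tested cytosolic tRNA synthetases, which load amino acids onto tRNAs, 2 had a positive and 2 a negative interaction at an unadjusted p under 0.05 (background 6.09%), with HARS1 at -0.24 ± 0.10 and NARS1 at 0.20 ± 0.09. These 4 did not point one way.

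Of the 18 tested stress effectors and secreted factors, KLHL24 had an interaction of 0.27 ± 0.10 (unadjusted p = 0.0085). The diet difference of DEPP1 was 0.44 ± 0.20 (unadjusted p = 0.034), and STC2, a secreted glycoprotein induced by stress in the endoplasmic reticulum, had one of -0.26 ± 0.13 (unadjusted p = 0.047). Both genes were at low levels, with group means from 1.20 to 1.96 CPM for DEPP1 and from 1.86 to 2.58 CPM for STC2. In the 18 tested genes of the other arms of the unfolded protein response, ATF6 itself, a sensor in the endoplasmic reticulum, had a diet difference of 0.11 ± 0.04 (unadjusted p = 0.013). Of the 12 tested targets of glucocorticoids and hypoxia, a list of signals that also act on DDIT4, none had an unadjusted p under 0.05 for diet, birth weight or the interaction.

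Since no member differed between groups by the test, their levels were compared with each other over the 33 piglets. Of 36 pairs of members, 2 passed for both Pearson's r and Spearman's rho (100000 permutations, Benjamini-Hochberg over the 36 pairs, two-sided). The same count over pairs of all genes tested was not made, so this one does not set the members apart. PSAT1 and PHGDH, the consecutive enzymes of serine synthesis, rose and fell together with r = 0.733 and rho = 0.657 (permutation p = 1e-05, the smallest that these permutations can give, adjusted p = 0.00036, and for rho p = 2e-05, adjusted p = 0.00072). Without the 2 piglets farthest from the median of the gene named first, r was 0.718, and on residuals from group and sex it was 0.757. The 2 piglets were picked anew for each pair, and extremes of the other gene were not removed. With all 36 libraries r was 0.347, and the pair did not pass.

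PSAT1 and SLC7A11 gave r = 0.529 and rho = 0.512 (permutation p = 0.0015 and 0.0026, adjusted p = 0.026 and 0.047). Without the 2 farthest piglets r was 0.388. CHAC1 and SESN2 gave r = 0.532 (permutation p = 0.0022, adjusted p = 0.026) but rho = 0.384 (permutation p = 0.029, adjusted p = 0.17), and r was 0.280 without the 2 farthest piglets. This relation rested on those piglets. ASNS and TRIB3 gave r = 0.478 (permutation p = 0.0047, adjusted p = 0.042) and rho = 0.444 (permutation p = 0.010, adjusted p = 0.097), with r = 0.321 without the 2 farthest piglets. The median r over the 36 pairs was 0.05. DDIT3 and TRIB3 rested on few counts, which limits r in their pairs, and a median over other sets of genes was not computed.

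The levels of PSAT1, PHGDH and SLC7A11 also moved with those of glial marker genes. Of 99 relations between the 9 members and 8 marker lists and 3 library measures, 13 passed for both r and rho, and all 13 involved these 3 genes. The share of all genes tested that would pass in the same way was not computed, so the count does not set these 3 genes apart. With the mean log2 CPM of 7 astrocyte and Bergmann glia markers, r was 0.751 for PSAT1, 0.738 for PHGDH and 0.549 for SLC7A11 (permutation p = 1e-05, 1e-05 and 0.0010, adjusted p = 0.00033, 0.00033 and 0.010), and rho was 0.730, 0.701 and 0.533 (permutation p = 1e-05, 1e-05 and 0.0016, adjusted p = 0.00033, 0.00033 and 0.018). Without the 2 farthest piglets r was 0.756, 0.709 and 0.536. In this and the relations that follow, those 2 piglets were picked by the marker level or library measure, not by the member.

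With 5 oligodendrocyte markers, r was 0.757 for PHGDH and 0.691 for PSAT1 (permutation p = 1e-05 and 2e-05, adjusted p = 0.00033 and 0.00049), rho was 0.742 and 0.604 (permutation p = 1e-05 and 0.00018, adjusted p = 0.00033 and 0.0030), and r without the 2 farthest piglets was 0.678 and 0.609. With 5 microglia markers, r was 0.655 for PSAT1, 0.567 for SLC7A11 and 0.473 for PHGDH, and with 4 endothelium markers it was 0.608 for SLC7A11. With 6 granule neuron markers the sign was negative, with r = -0.628 for PSAT1, -0.521 for PHGDH and -0.516 for SLC7A11. The PSAT1 level also had r = -0.611 and rho = -0.512 with the share of unassigned reads. For these 8 relations the permutation p was between 2e-05 and 0.0068 and the adjusted p between 0.00040 and 0.045, and without the 2 farthest piglets r was between 0.514 and 0.713 for the positive ones and between -0.716 and -0.524 for the negative ones. A level in CPM is a share of the library, so genes of one cell type rise as those of another fall, and whether the share of glial tissue in the sample set these relations was not tested.

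**Figure D3:**
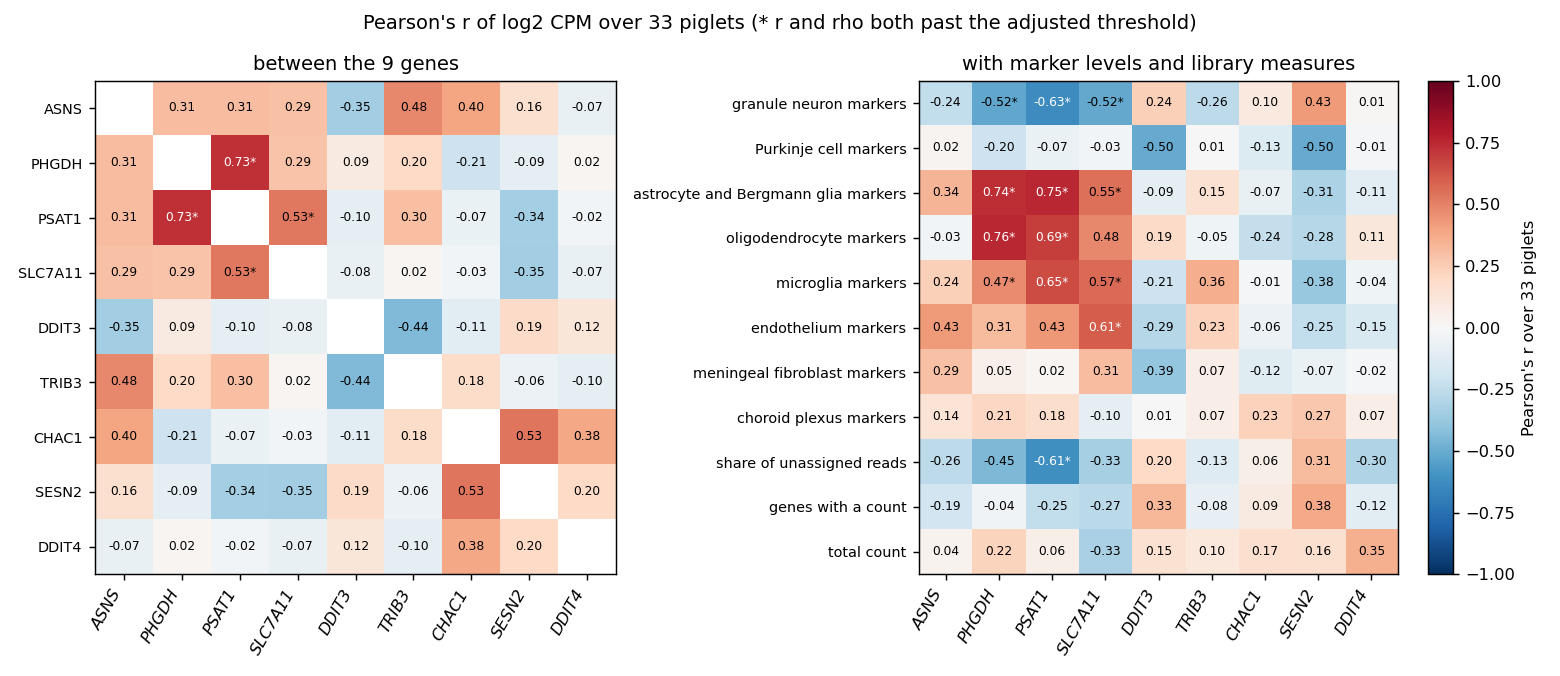
Pearson's r (colour and number, from -1 to 1) over 33 piglets between the 9 genes (left) and of the 9 genes with the mean log2 CPM of 8 marker lists and with 3 library measures (right), with an asterisk where r and rho both passed. PSAT1 and PHGDH share the highest value on the left (0.73), and the 13 asterisks on the right are all in the columns of PHGDH, PSAT1 and SLC7A11.

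**Figure D4:**
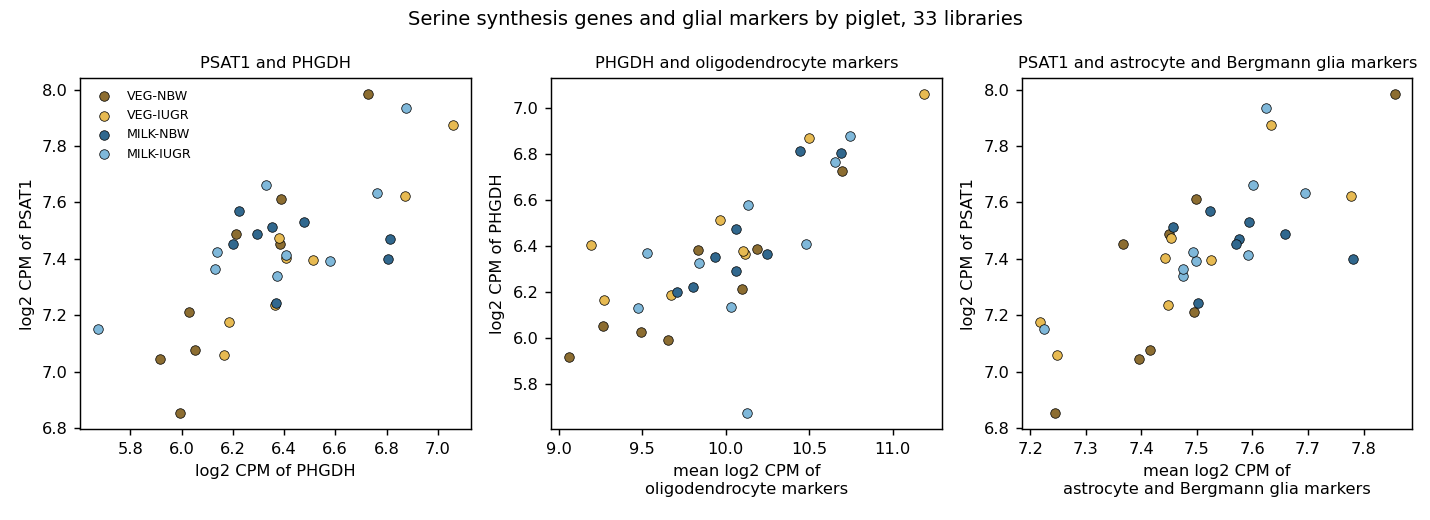
Log2 CPM of PSAT1 against PHGDH (left), of PHGDH against the mean of the oligodendrocyte markers (middle) and of PSAT1 against the mean of the astrocyte and Bergmann glia markers (right), with 1 point for each of 33 piglets coloured by group. The points of the 4 groups are mixed in each panel, with r of 0.733, 0.757 and 0.751.

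The marker levels themselves overlapped between groups. The mean log2 CPM of the oligodendrocyte markers ranged from 9.06 to 10.7 in VEG-NBW, from 9.20 to 11.2 in VEG-IUGR, from 9.71 to 10.7 in MILK-NBW and from 9.47 to 10.7 in MILK-IUGR. The choroid plexus markers reached 6.13 in MILK-IUGR, 2.36 in MILK-NBW, 4.31 in VEG-IUGR and 3.97 in VEG-NBW. The 6.13 was that of piglet 231 alone, and the next piglet of MILK-IUGR was at 2.98. Their medians were 2.19 in MILK-IUGR and 1.96 in MILK-NBW. Of the 5 markers, 3 had an interaction with an unadjusted p under 0.05 (background 6.09%), TTR among them (4.54 ± 1.54 on the log2 scale, unadjusted p = 0.0058, adjusted p = 0.784). The relation of the choroid plexus markers with every member missed the threshold. VEG-NBW had the lowest median of oligodendrocyte markers (9.75), as it had for PHGDH. With the oligodendrocyte and the astrocyte marker levels as covariates, the log2 difference of PHGDH in VEG-IUGR against VEG-NBW was 0.22 (edgeR unadjusted p = 0.0090, adjusted p = 0.9992), and that of CHAC1 was -0.43 (unadjusted p = 0.0043, adjusted p = 0.9992). In the same fit PHGDH had a log2 difference of -0.21 in MILK-IUGR against VEG-IUGR (unadjusted p = 0.011, adjusted p = 0.828), in place of -0.12 without the covariates, and an interaction of -0.24 (unadjusted p = 0.037, adjusted p = 0.754). For PSAT1 the same fit gave 0.02 in VEG-IUGR against VEG-NBW and 0.0077 in MILK-IUGR against VEG-IUGR (edgeR unadjusted p = 0.79 and 0.92). Its interaction was 0.05 (unadjusted p = 0.64). None of these was called, and the share of all genes under 0.05 in this fit is not given here.

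Among genes with a symbol, those most like each member were found by Spearman's rho on residuals from group and sex over the 33 libraries, as a description. For PHGDH these were SOX8 (rho = 0.892), a transcription factor of oligodendrocytes and other glia, MMAB (0.887) and TSPAN33 (0.870). For PSAT1 they were CAV2 (0.855), GPSM2 (0.833) and SCARB2 (0.830). Among all genes compared with PSAT1, PHGDH ranked 182 of 15355 and SLC7A11 ranked 1026, so 6.68% of genes were closer to PSAT1 than SLC7A11 was. For SLC7A11 they were DPY19L4 (0.776), OGN (0.767) and MBOAT2 (0.759).

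The closest genes with a symbol of the remaining members follow, and no p was computed for any of these values. CHAC1 was closest to NADK (0.745), TOR3A (0.677) and IER2 (0.655), an immediate early gene. SESN2 was closest to TLCD3B (0.807), TLX3 (0.770) and UBTF (0.760), and DDIT4 to POLR2E (0.777), ZNF428 (0.744) and PRDX5 (0.698). ASNS was closest to NUTF2 (0.730), CRK (0.715) and AHCY (0.700). TRIB3 was closest to PBLD (0.683), GABRA4 (0.642) and SPCS2 (0.636), and DDIT3 to NHSL2 (0.670), DENND11 (0.669) and FRS2 (0.650), both over few counts. No member was among the 3 named genes of any other member.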

How the data were processed

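Total RNA from the cerebellum of 36 piglets was read from both ends. For each piglet the authors deposited raw counts per gene, not normalized, with 5 rows for unassigned reads that stayed out of library sizes and tests. The submitters' processing notes name Trim Galore, HISAT2, HTSeq, DESeq2 and Sscrofa11.1. Their versions and the strand setting are not given in the sources used here. Symbols were matched for 15029 of 31907 identifiers, and positions are from RefSeq (Sscrofa11.1). Groups and sexes came from the labels, which hold no litter or batch, so litter was in no test.

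Libraries were left out where the share of unassigned reads stood apart in its group of 9 by Dixon's rule. The main test was that of edgeR 4.0.16 in R 4.3.3 (TMM, filterByExpr with a minimum count of 10, quasi-likelihood F test, sex as covariate), diet and birth weight in a model without interaction and the other contrasts in a model of 4 group means, called at an adjusted p under 0.05. p-values measure the spread between piglets, taken as independent. The script was tested on simulated counts with known changes. Log2 CPM used a prior count of 2. Alternatives used DESeq2 1.42.0, limma 3.58.1 voom and sva 3.50.0. The members, lists and tests were chosen with earlier results of these data known. Named genes were all members, at most 3 genes per list with the smallest unadjusted p for diet, birth weight or interaction, and the 3 genes with a symbol closest to each member. Leaving out each library in turn, the relations with markers and library measures, and the 2 marker covariates were added after seeing the data. A search of promoter motifs was planned and not run.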

Additional observations from a re-analysis of the deposited data

Results flagged for a closer look

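Of 36 combinations of a member and a group, 1 held a piglet far from the rest of its group. TRIB3 in piglet 232 of MILK-IUGR was at 1.589 CPM, and the other 8 piglets of the group lay between 0.433 and 0.987 CPM. The gap to the nearest piglet was 0.521 of the range of the group, above the critical value of 0.493 for 9 piglets. Chance alone marks about 1 in 20 groups by this rule, and TRIB3 rested on 8 to 32 counts per library.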

How the results depend on the processing

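The 9 members were called in none of the 12 settings tried beside the main analysis and in none of the 33 fits that each left out 1 library, for any of the 8 comparisons. Of 737 member values in these settings, 53 changed sign, 19 of them among the 64 values with all 36 libraries, and none of the 53 had an unadjusted p under 0.05. With all 36 libraries r of the granule neuron markers turned positive, to 0.968 with PSAT1, 0.208 with PHGDH and 0.940 with SLC7A11, where piglet 210 had 0 or 1 counts of 2 of these genes, and the cause was not tested. The pairs that passed were PSAT1 with PHGDH and PSAT1 with SLC7A11 on residuals and on size-factor counts too, whereas with all 36 libraries, where 28 pairs could be tested, they were PSAT1 with SLC7A11 and CHAC1 with SESN2. Over all genes, 0 were called in MILK-NBW against VEG-NBW in the main analysis, whereas 1 was called without piglet 207 (TPRKB), 2 with DESeq2 (TPRKB and CHEK2) and 1 with limma voom (CHEK2). In MILK-IUGR against MILK-NBW, 0 were called in the main analysis and 1 (SLC19A3) at an adjusted p under 0.1, without piglet 207, with DESeq2 size factors, with DESeq2, with at least 10 counts in every library, with limma voom and without the sex term. Leaving out each library gave 0 to 1 called genes in both contrasts, 1 without piglet 207 in the former and 1 without piglet 200, 207, 209, 220 or 226 in the latter. For sex, 7 genes were called with at least 10 counts in every library, where fewer genes were tested, in place of 25, and the fits that left out a library gave 25 to 26. DDIT3 could not be tested with all 36 libraries, in fits of only the 2 groups compared or with at least 10 counts in every library, nor TRIB3 with the latter. Of the 33 fits that each left out 1 library, DDIT3 passed the filter on low counts in 31 and was not tested in the rest. No paired analysis was possible because piglet numbers are unique and shared by no groups, and litter, which the study's models hold, is not in the labels. Counting error limits DDIT3 and TRIB3 in particular.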
